A study of Mus musculus with 2 samples.

Results

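The interferon-responsive TRIM genes described here are 10 mouse genes, Trim12a, Trim12c, Trim30a, Trim30b, Trim30c, Trim30d, Trim34a, Trim21, Trim25 and Trim14. They were taken by gene symbol, and all 10 were found among the 55536 annotated genes. These genes and the gene lists used below were chosen with earlier results of these data known. The 10 genes were measured in primary macrophages grown from bone marrow of C57BL/6J mice, whose sex and age were not recorded. All cells had received Lipid A, the TLR4-activating moiety of endotoxin, at 100 ng/ml for 12 h, had then been washed and rested for 12 h, and had been given 100 ng/ml again for 60 min. Ribosomal RNA was depleted and total RNA was sequenced. The labels describe the RNA once as nucleoplasmic and once as nuclear, and which of them applies is not settled here. The series has 1 group with 2 biological replicates, which carry the same donor identifier, so part of their spread may be technical. Pairs of values below are those of replicate 1 and replicate 2. RNA input was 1 µg for replicate 1 and 500 ng for replicate 2. Unstimulated or singly stimulated cells were not analysed here, and no response to Lipid A or interferon can be measured.

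Expected counts on annotated genes totalled 23.6 M in replicate 1 and 15.7 M in replicate 2. All 6 macrophage markers examined were at 1 TPM or more in both libraries (41.7 TPM or more). TPM is a gene's share of all transcripts after correction for length. None of 12 markers of T cells, B cells, neutrophils, erythroid cells, mast cells or fibroblasts reached 1 TPM in either library in the tables in RSEM format, where the highest value was 0.09 TPM (replicate 1) and 0.17 TPM (replicate 2). In the tables in kallisto format 11 of the 12 stayed below 1 TPM in both libraries, and the T cell marker Cd3d had 0.92 and 3.31 TPM. Values below are from the RSEM-format tables unless the kallisto format is named. In RNA from bulk samples, fewer cells of a type and less RNA per cell cannot be told apart.

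TRIM proteins carry, in most members, a RING domain that attaches ubiquitin, followed by a B-box and a coiled coil, and the end of the protein decides what is bound. Many TRIM genes are induced by type I interferon, which macrophages release when TLR4 or nucleic acid sensors are engaged. Their products act on viral proteins directly or tune the sensors and adaptors that lead to NF-kB and interferon. In the mouse, the Trim30 and Trim12 groups expanded beside Trim34a and Trim5 in a cluster on chromosome 7.

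Most of these genes stood well above the typical Trim gene in level. The genes were chosen with earlier results of these data known, so this contrast is descriptive. The order was led by Trim30a and Trim30d. Of the 10 genes, 9 were at 10 TPM or more in both libraries, where 14.9% of all 22028 protein-coding genes reached that level. Their TPM summed to 756 in replicate 1 and 551 in replicate 2 (654 ± 145, SD, n = 2). Trim30a alone held 29.2% of that sum in replicate 1 and 35.4% in replicate 2. Trim30a, Trim30d and Trim25 together held 60.7% and 65.0%.

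**Figure D1:**
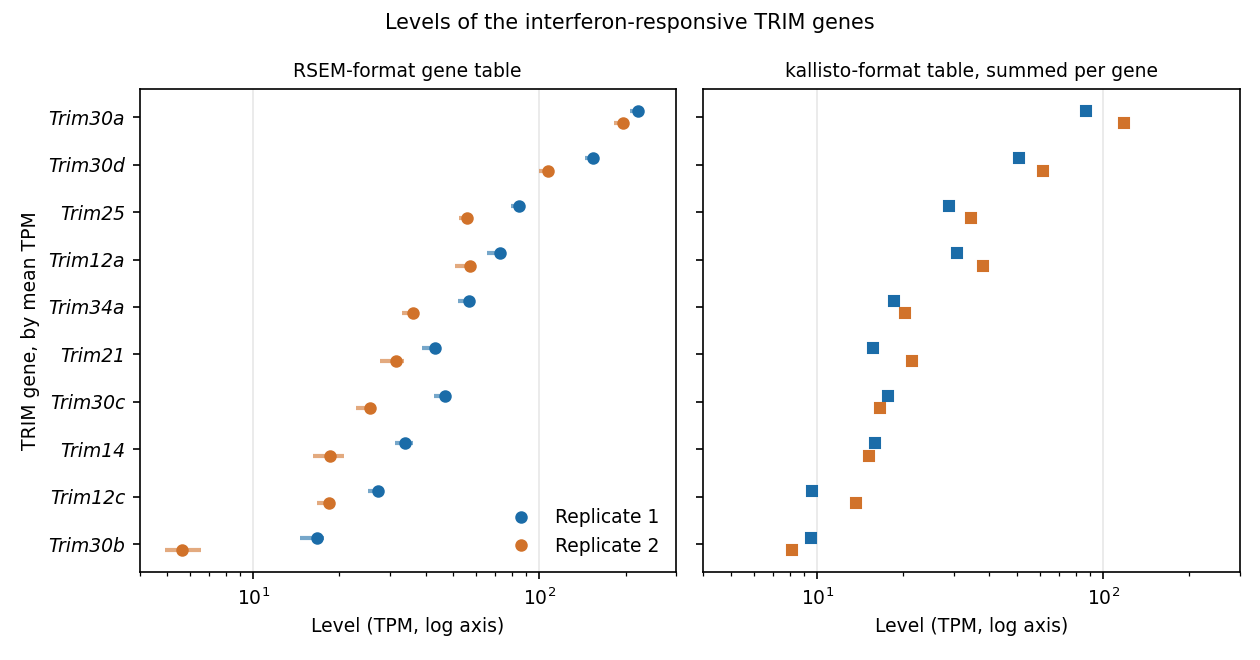
Level of each of the 10 TRIM genes in TPM on a log axis, replicate 1 in blue and replicate 2 in orange. Left, the gene tables in the format of RSEM, with horizontal lines for the deposited interval; right, the transcript tables in the format of kallisto, summed per gene. Trim30a is highest in both panels (221 and 195 TPM on the left) and Trim30b lowest in both (16.7 and 5.63 TPM on the left). On the right, Trim30b and Trim12c are close in replicate 1 (9.50 and 9.60 TPM).

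Trim30a encodes a RING protein that in mouse macrophages is known as a feedback inhibitor of TLR signalling, acting on the adaptors TAB2 and TAB3 of the kinase TAK1. Trim30a was at 221 and 195 TPM (208 ± 18.1, SD, n = 2), from 19365 and 15780 expected counts. It ranked at position 169 among the protein-coding genes by mean TPM. The 3 protein-coding genes nearest to it in level over the 2 libraries were Selenop (217 and 192 TPM), Ncf1 (225 and 187 TPM) and Zfp263 (219 and 185 TPM). The measure of likeness was the distance between log2 values over these 2 libraries only, so it describes level and no more.

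Trim30d, also known as Trim79 and known in the mouse for restricting tick-borne flaviviruses, was second, at 153 and 107 TPM (130.3 ± 32.7, SD, n = 2). The other genes of the group were lower. Trim30c had 46.9 and 25.5 TPM (36.2 ± 15.2). Trim30b had 16.7 TPM and 5.63 TPM (11.2 ± 7.86), and it was the single gene of the 10 below 10 TPM in a library. Within the Trim30 group the libraries of one gene did not overlap those of the next.

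Trim12a, Trim12c and Trim34a are the other genes of the set in the cluster on chromosome 7, where Trim5 also lies. TRIM5 is the capsid-binding restriction factor of primates, and mouse Trim12c is known to work with TRAF6 in NF-kB and interferon induction. Trim12a had 72.7 and 57.1 TPM (64.9 ± 11.0, SD, n = 2). Trim34a had 56.5 TPM and 36.2 TPM (46.4 ± 14.4). Trim12c had 27.2 TPM and 18.4 TPM (22.8 ± 6.24), lower in both libraries than Trim12a or Trim34a in either.

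Trim25, Trim21 and Trim14 lie outside the cluster and belong to the better-known antiviral routes. TRIM25 ubiquitinates the RNA sensor RIG-I and is itself a target of ISG15 conjugation. Trim25 had 84.9 and 56.05 TPM (70.5 ± 20.4, SD, n = 2). TRIM21 is the cytosolic antibody receptor, which marks antibody-coated viruses for the proteasome. Trim21 had 43.0 and 31.55 TPM (37.3 ± 8.10). TRIM14 lacks a RING domain, sits at mitochondria with the adaptor MAVS and recruits the deubiquitinase USP14 to the DNA sensor cGAS. Trim14 had 33.9 and 18.5 TPM (26.2 ± 10.9).

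In the order of means, 3 pairs of neighbours were not separated once compared within each library. They were Trim25 with Trim12a, Trim21 with Trim30c, and Trim14 with Trim12c, whose mean log2 differences of 0.10, 0.09 and 0.17 were smaller than their SDs of 0.18, 0.31 and 0.22 (n = 2 libraries). In the first 2 of these pairs the order turned round between the libraries. For 2 more pairs, Trim34a over Trim21 and Trim30c over Trim14, the gap between the means was within the larger SD of the TPM values. The first of each pair was still higher in both libraries. In kallisto format, however, Trim34a was below Trim21 in replicate 2 (20.3 and 21.5 TPM). The highest gene exceeded the lowest 13.2-fold in replicate 1 and 34.7-fold in replicate 2.

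The known partners of these proteins were looked up from lists set up by role. Of 16 partner genes, 16 were at 1 TPM or more and 10 at 10 TPM or more in both libraries. On the arm of TRIM30A and TRIM12C, Tab2 had 40.9 and 38.8 TPM, while Tab3 had 2.67 and 1.40 TPM. The ligase Traf6 had 10.8 and 11.0 TPM, and Map3k7, which encodes TAK1, had 15.8 and 8.93 TPM. Trim30a was therefore above each of the 4 genes of that arm in both libraries.

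On the arm of TRIM25, the gene for RIG-I, Ddx58, had 183 and 91.9 TPM, and Isg15 had 326 and 92.9 TPM. Zc3hav1, a TRIM25 cofactor that binds viral RNA, had 127 and 90.7 TPM. Rnf135, another RIG-I ligase, had 21.3 and 9.94 TPM, and the adaptor gene Mavs had 5.31 and 3.63 TPM. Trim25 was below Ddx58, Isg15 and Zc3hav1 and above Rnf135 and Mavs in both libraries.

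On the arm of TRIM14, Usp14 had 19.4 and 16.4 TPM, Cgas 9.55 and 6.13 TPM, and the STING gene Tmem173 7.58 and 5.69 TPM. Trim14 was above each of them in both libraries, except that in kallisto format Usp14 was higher in replicate 2 (15.2 TPM for Trim14 and 15.7 TPM for Usp14). For TRIM21, the unfoldase gene Vcp had 73.7 and 55.5 TPM, and the interferon regulatory factors described as TRIM21 substrates had 42.7 and 28.3 TPM (Irf5), 37.1 and 25.3 TPM (Irf3) and 28.1 and 14.6 TPM (Irf8). Trim21 lay below Vcp and above Irf3 and Irf8 in both libraries. Its order with Irf5 was not settled, since Trim21 had 15.7 and 21.5 TPM in kallisto format and Irf5 had 24.3 and 28.3 TPM there.

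The regulators of the interferon response named here were at 10 TPM or more in both libraries. The receptor genes Ifnar1 and Ifnar2 had 71.0 and 62.3 TPM in replicate 1 and 52.6 and 40.9 TPM in replicate 2. The transcription factor genes were spread, with Stat2 at 238 and 112 TPM and Irf9 at 33.9 and 24.1 TPM. Irf7 had 533 and 208 TPM, and the ligand gene Ifnb1 had 24.7 and 15.9 TPM.

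Among all 68 protein-coding Trim genes, 8 of the 10 highest by mean TPM belonged to the set described here. No response to interferon was measured, so the contrast is between the chosen set and the remaining Trim genes. The other 58 had a median of 0.55 and 0.43 TPM, against 51.7 and 33.9 TPM for the 10. Of the 58, 5 were at 10 TPM or more in both libraries, 20 were at 1 TPM or more, and 16 were assigned 0 counts in both, of which 7 had counts in both libraries in kallisto format. The 5 highest were Trim26 (62.6 and 53.1 TPM), Trim35 (35.9 and 27.5 TPM), Trim28 (19.5 and 16.7 TPM), Trim41 (22.2 and 12.9 TPM) and Trim56 (19.3 and 14.6 TPM). Trim26 was therefore above 6 of the 10 in mean TPM, and 6 of the 58 were above Trim30b.

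**Figure D2:**
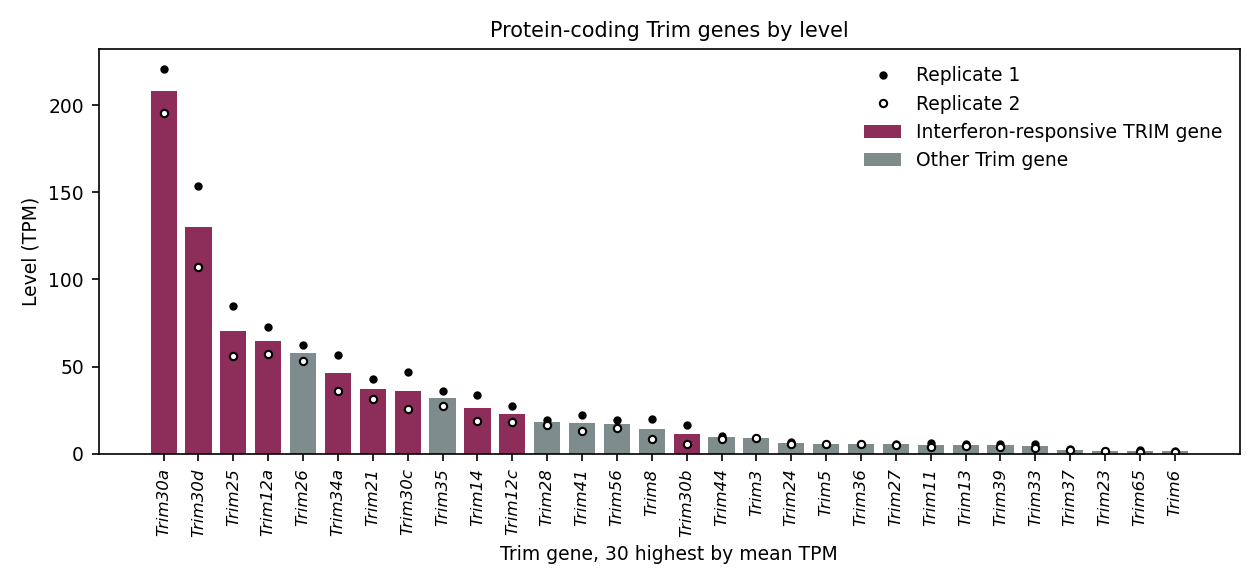
Level in TPM of the 30 highest protein-coding Trim genes. Bars are means of the 2 libraries, filled points replicate 1 and open points replicate 2; the 10 interferon-responsive genes are in purple and other Trim genes in grey. The 4 tallest bars are Trim30a, Trim30d, Trim25 and Trim12a, and the first grey bar is Trim26 at 57.9 TPM.

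Most of the TRIM genes were lower than the median of a list of 33 other interferon-stimulated genes. The list had a median of 183 and 102 TPM, and all 33 were at 10 TPM or more in both libraries. Its highest gene was Rsad2, which encodes viperin, at 1552 and 623 TPM, and its lowest by mean was Irf9. Trim30a was above the list's median in both libraries, Trim30d was above it in replicate 2, and the other 8 TRIM genes were below it in both. In kallisto format Trim30d was below the list's median in replicate 2 (61.7 against 62.7 TPM).

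Between the libraries, most of the TRIM genes differed little once library size was taken into account. Ratios were computed on expected counts scaled by TMM, replicate 1 over replicate 2, with 1 library on each side and so with no test. A single gene of the 10, Trim30b, was over 2-fold apart (log2 ratio 1.02, 2.03-fold higher in replicate 1, from 1323 and 426 expected counts). Over all 14038 genes with a mean of 10 counts or more, 8.54% were over 2-fold apart, made up of 4.25% higher in replicate 1 and 4.29% higher in replicate 2. The share among the TRIM genes, 1 of 10, is near that background, which takes in genes with counts down to a mean of 10. Of the 11134 protein-coding genes tested, 635 were over 2-fold apart. Of the 3281 protein-coding genes at 10 TPM or more in both libraries, 67 were. Trim30b is not among those 3281, since it was below 10 TPM in replicate 2. The ratio of Trim30b was 0.58 on the log2 scale in the tables in kallisto format, where none of the 10 was over 2-fold apart.

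The remaining log2 ratios ran from -0.32 for Trim30a to 0.57 for Trim14. In all, 9 of the 10 were above 0, where 49.9% of all genes tested were. On centred TPM the count was 7 with a pseudocount of 0.1 and 8 with a pseudocount of 1. Their median was 0.15, against -0.0013 over all genes tested. Trim30c followed Trim14 at 0.43, and Trim21, Trim34a, Trim25, Trim12c, Trim12a and Trim30d lay between 0.07 and 0.21. The robust SD of the ratios over all genes tested was 0.45, and 8 of the 10 lay within it on either side of 0, all but Trim14 and Trim30b.

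The 33 interferon-stimulated genes had a median log2 ratio of 0.55, and 7 of them were over 2-fold higher in replicate 1. The 58 other Trim genes had a median of -0.12 over the 33 that were tested, 1 of them over 2-fold apart. TPM itself was higher in replicate 1 for all 10 genes, and the median protein-coding gene outside the mitochondrial genome (called nuclear here, 1 TPM or more in both) was also higher there, by 0.47 on the log2 scale. RNA input and depth also differed between the libraries, and their part in these ratios was not tested. Expressed as a share of nuclear protein-coding TPM, the 10 genes together held 0.269% in replicate 1 and 0.293% in replicate 2.

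**Figure D3:**
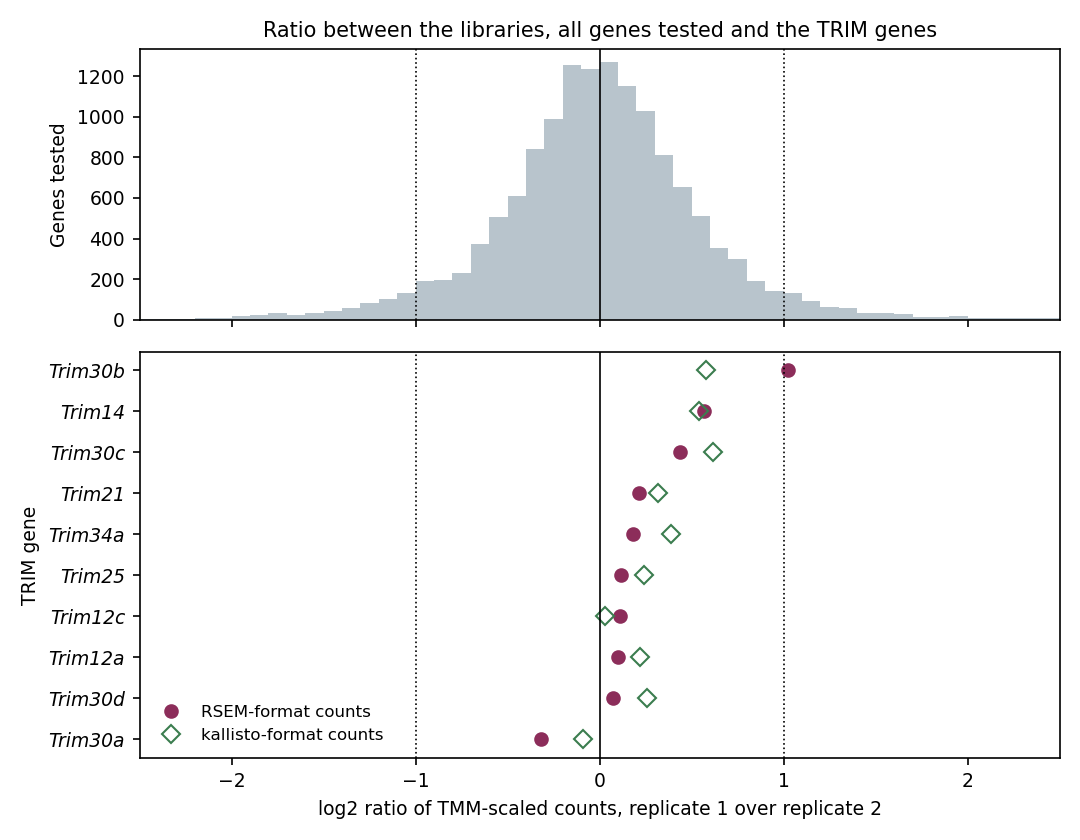
Top, number of genes by log2 ratio of TMM-scaled expected counts, replicate 1 over replicate 2, over the 14038 genes tested (84 lie beyond the axis). Bottom, the ratio of each TRIM gene from RSEM-format counts (purple circles) and kallisto-format counts (open green diamonds); dotted lines mark 2-fold. Trim30b lies just past the right line in circles only, and Trim30a is the one gene left of 0 in both.

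The annotated transcripts behind these levels differed in kind. The 10 genes have 38 annotated transcripts, of which 27 held 10% or more of their gene's TPM in a library by either quantification. For Trim30d, Trim25, Trim34a, Trim30c and Trim12c, all annotated transcripts are protein-coding, so no share on other classes can be given. For the other 5 genes it ranged widely, while the median over 3281 protein-coding genes of 10 TPM or more was 22.7% in replicate 1 and 25.5% in replicate 2.

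Trim12a had 49.7% of its TPM in replicate 1 and 56.9% in replicate 2 on transcripts not annotated as protein-coding. Most of that was the short processed transcript Trim12a-206, with 32.0% and 42.8%, and the retained-intron transcript Trim12a-205 held 17.4% and 14.1%. The protein-coding Trim12a-203 held 34.4% and 32.0%. By expected counts, which are not divided by length, Trim12a-205 held 44.7% in replicate 1 and 41.5% in replicate 2, so its leading class other than protein-coding depends on the scale. As a class, its protein-coding transcripts were above each other class taken singly on both scales in RSEM format. The other classes together still held 53.0% and 53.9% of its expected counts.

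Trim21 had 39.4% of its TPM in replicate 1 and 49.9% in replicate 2 on 3 retained-intron transcripts of 634 to 666 bases. The same transcripts held 10.04% and 14.2% of its expected counts. Its main protein-coding transcript, Trim21-201, held 49.6% and 33.1% of TPM. Trim30b had 44.7% and 35.0% on retained-intron transcripts. Trim30b-205 and Trim30b-206 are annotated in different classes with the same sequence, and were given equal counts (18.7 each in replicate 1 and 20.5 each in replicate 2).

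For Trim30a, Trim14, Trim30b and Trim21 the shares depended on the quantification. In kallisto format Trim30b had 29.0% and 16.0%, and Trim21 had 50.7% and 61.5%. Trim30a had 6.85% and 3.93% on such transcripts in RSEM format, against 26.3% and 15.1% in kallisto format, most of it on Trim30a-203, a retained-intron fragment of 314 bases. By expected counts, all Trim30a transcripts not annotated as protein-coding together held 0.346% in replicate 1 and 0.172% in replicate 2. Trim14 had 6.96% and 20.3% in RSEM format, and 35.7% and 33.9% in kallisto format, on short processed transcripts and 1 nonsense-mediated decay transcript.

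Several genes divided their level among coding transcripts. Trim30d-202 held 65.3% of Trim30d TPM in replicate 1 and 64.0% in replicate 2, with Trim30d-201 at 34.3% and 36.0%. Trim25-203 held 96.5% and 98.9% of Trim25. Trim34a was split between Trim34a-203 (51.3% and 46.5%) and Trim34a-201 (43.2% and 50.9%), whose order turned round between the libraries. Trim12c-202 was assigned 0 counts in both libraries, a count that leaves room for at most 0.0501 TPM in replicate 1 and 0.0560 TPM in replicate 2 by counting error alone.

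**Figure D4:**
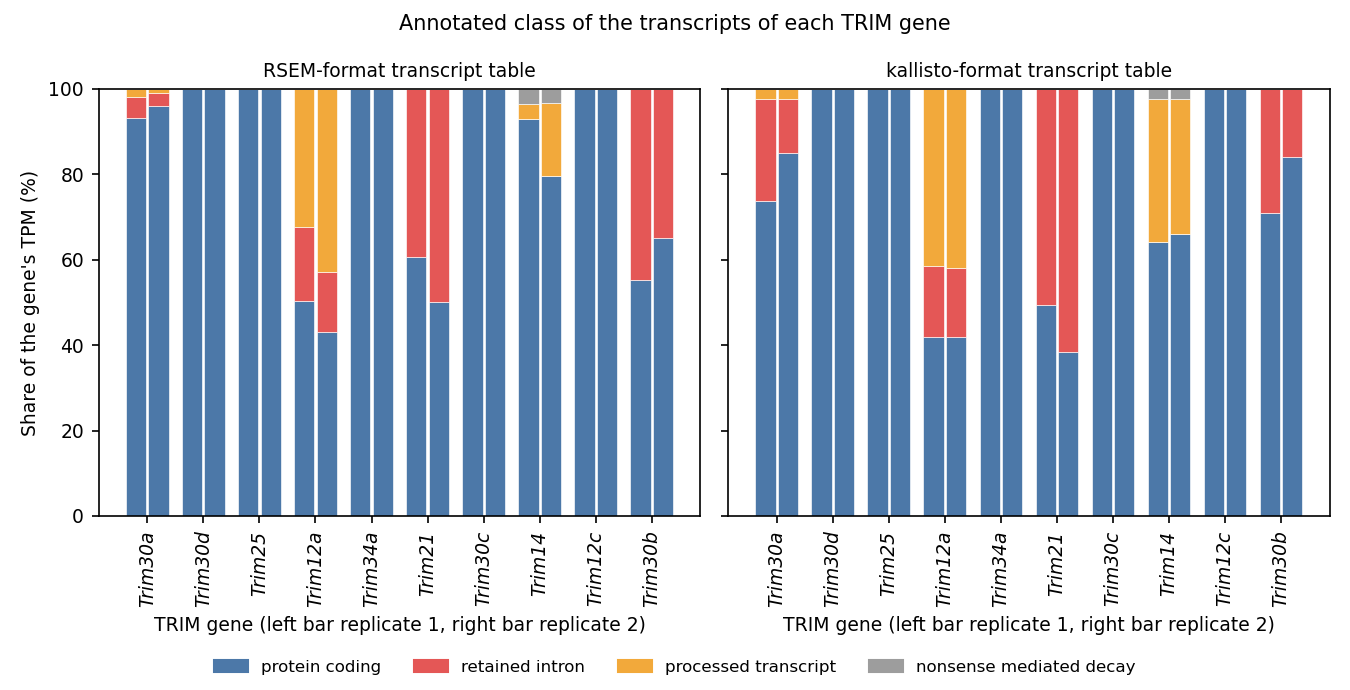
Share of each TRIM gene's TPM by annotated transcript class, with replicate 1 as the left bar and replicate 2 as the right bar of each pair. Left, RSEM-format tables; right, kallisto-format tables. The classes other than protein-coding are seen in 5 genes, and reach 56.9% in Trim12a on the left.

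Trim34a, Trim12a, Trim12c, Trim30b, Trim30c, Trim30a and Trim30d lie together on chromosome 7, at 104244457 to 104507849 on mm10, a span of 263 kb. Trim34a is on the plus strand and the other 6 on the minus strand. Trim21 lies 1.68 Mb away on the same chromosome, at 102557921 to 102565486 on the minus strand. Trim25 is on chromosome 11, at 88999376 to 89020293 on the plus strand, and Trim14 on chromosome 4, at 46493781 to 46536141 on the minus strand. Not every gene of the cluster was at such levels. Among its neighbours, named here for their position after their values were seen, Trim5 had 5.32 and 5.55 TPM, Trim6 1.48 and 1.16 TPM, and Trim34b 0.31 and 0.20 TPM.

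Sequence shared between these genes limits how surely reads were assigned. Of the 31-base words in the main transcript of Trim34a, 50.1% also occur in Trim34b. In Trim12c 48.9% occur in another gene, with 39.6% in Trim5, and in Trim12a 40.9% do, with 29.0% in Trim5. The share was 12.3% in Trim30d and 11.8% in Trim30a, 5.69% or less in the other 5 genes, and 0% in Trim14. The effect of this sharing on the levels was not tested. Over all genes, counts totalled 23630299 and 15687624 in RSEM format and 31951259 and 27026588 in kallisto format. Trim30b had 1323 and 426 counts in RSEM format and 2916 and 1812 counts in kallisto format. The main transcript of Trim30b, with 4.53% of its words shared, held 45.4% and 42.1% of its RSEM-format counts. Trim34a had 3489 and 2011 counts in RSEM format and 4262 and 3015 counts in kallisto format.

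In coding sequence, Trim12a matched Trim12c at 96.4% of the bases of the shorter one. Trim30a matched Trim30d at 89.6%, Trim30b at 87.1% and Trim30c at 83.4%. Where at least 80% of the shorter sequence could be aligned, Trim34a and Trim21 matched the other cluster genes and each other at 58.9% to 63.9%. Trim25 and Trim14 reached that with no other gene, and Trim30d did not reach it with Trim12a, Trim30b or Trim21. Coding lengths of the main transcripts ran from 567 bases in Trim30b and 891 in Trim12a to 1902 in Trim25. The closest pairs did not share a level: Trim12a was above Trim12c and Trim30a above Trim30d in both libraries.

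**Figure D5:**
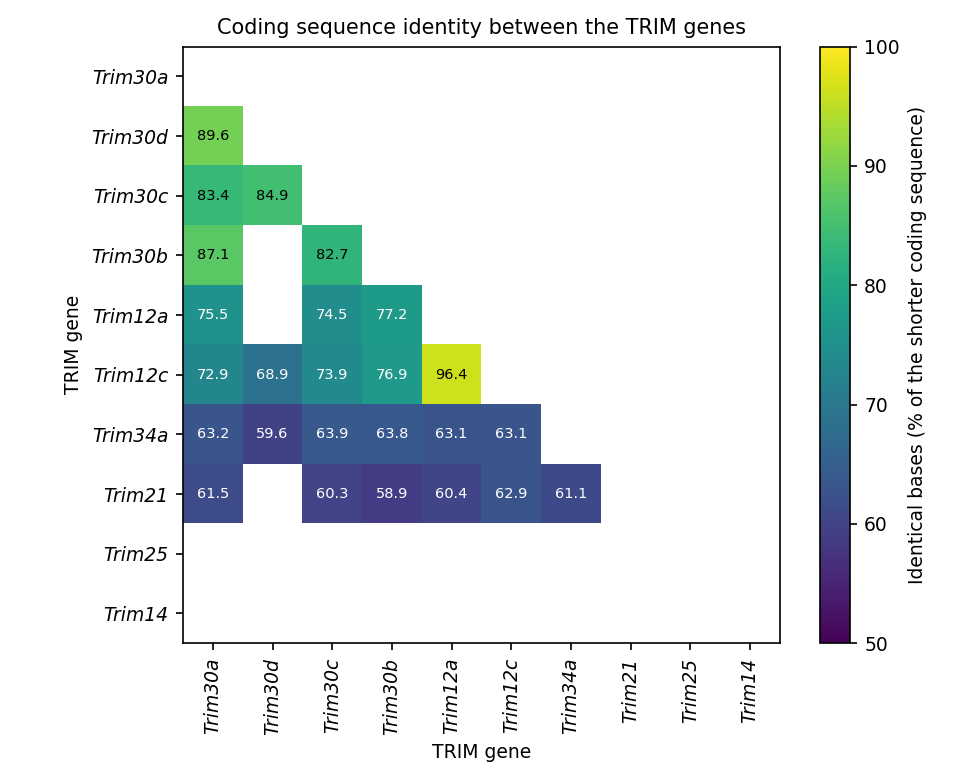
Percent of identical bases between the coding sequences of the main transcripts, over the shorter of each pair; pairs aligned over less than 80% of it are blank. The brightest cell is Trim12a with Trim12c at 96.4%, and the Trim30 pairs shown run from 82.7% to 89.6%.

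The promoters, defined by RefSeq on GRCm38.p6 as 250 bases before to 50 after a start site, were searched for the core of the interferon-stimulated response element on both strands, GAAA followed by any 2 bases and GAAA again. The element is bound by interferon regulatory factors. It was found in 6 of the 9 TRIM genes with a promoter entry (Trim12a, Trim12c, Trim21, Trim30a, Trim30d and Trim34a), against 3.99% of 27025 genes. Counted over promoters, of which Trim30a has 2, it was 7 of 10, against 3.44% of 32851. The genes were chosen as interferon-responsive, and the promoters of Trim30a and Trim30d, and of Trim12a and Trim12c, are much alike. These counts are therefore descriptive, and the matches are not independent of each other. Trim14 was not searched. The windows below are given on the gene's own strand, with the matching letters in capitals, because they show the motif that 6 of the genes share and how alike the Trim30 and Trim12 promoters are.
Trim30a (chr7:104465200-104465249, minus strand): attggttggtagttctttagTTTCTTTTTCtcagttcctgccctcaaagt
Trim30d (chr7:104507861-104507910, minus strand): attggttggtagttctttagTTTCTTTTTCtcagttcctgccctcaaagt
Trim30c (chr7:104400886-104400935, minus strand): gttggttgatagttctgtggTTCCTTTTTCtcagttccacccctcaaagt
Trim12c (chr7:104353350-104353398, minus strand): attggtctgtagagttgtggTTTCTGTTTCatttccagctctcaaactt
Trim12a (chr7:104315466-104315495, minus strand): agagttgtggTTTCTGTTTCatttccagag
Trim34a (chr7:104244457-104244486, plus strand): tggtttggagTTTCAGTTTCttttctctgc
Trim21 (chr7:102565450-102565479, minus strand): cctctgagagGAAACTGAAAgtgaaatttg

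The windows of Trim30a and Trim30d are the same over all 50 bases, and their whole promoters were 92.0% identical. In Trim30c the capitals mark the nearest 10 letters, which differ from the motif by T3C, with positions counted from 1 at the first capital letter and the motif's letter first. The promoters of Trim12a and Trim12c were 82.3% identical. The motif lay 36 to 27 bases before the RefSeq start in the Trim30a promoter shown. In the other Trim30a promoter it lay 2 to 11 bases after the start. It lay 41 to 32 bases before the start in Trim30d and 29 to 20 before it in Trim12c. In Trim34a, Trim12a and Trim21 the first match lay 10 to 22 bases after the start. Trim21 held a second, overlapping match on the same strand.

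Of the other motifs searched on both strands, the interferon-gamma activated site TTCNNNGAA was found in Trim30c alone of the 9 genes, against 9.55% of all genes. The match in Trim30c overlapped no match of another motif. The NF-kB site of the immunoglobulin kappa enhancer was found in none of the 9, against 0.174% of all genes. Trim25 and Trim30b had no match to the 3 motifs in their windows. Like Trim30c, each came within 1 letter of the response element core (T1G in Trim25 and G7T in Trim30b, counted as above), a distance that 38.9% of all genes matched or bettered. The RefSeq window of Trim30b ends at 104358896, inside the mm10 span that GENCODE gives that gene (104355382 to 104369884). A match is a description of letters, and no match says only that these letters are not in the window.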

How the data were processed

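Per the labels, RNA of 2 libraries of 1 group was sequenced. The authors' tables are, per library, 1 of genes and 1 of transcripts in RSEM format and 1 of transcripts in kallisto format, built on mm10 and GENCODE M21 per the deposited readme files. Aligner, strand setting and tool versions: not given in the sources used here. The columns named in the file headers hold expected counts (reads divided among transcripts, as estimated by the authors), TPM (the deposited counts per effective length, scaled to a fixed total over all rows) and a posterior mean TPM. The percent of a gene's TPM on each transcript is also deposited and was recomputed here from TPM. The deposited interval bounds, treated as a score, have no stated level. Genes with near-identical copies, overlapping and antisense genes can exchange counts.

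Genes were matched by symbol through the M21 annotation. The 10 genes and the lists were chosen with earlier results of these data known. The genes named are the 10, the partner and regulator lists, the 5 highest other Trim genes, the highest and lowest of the interferon-stimulated list, the 3 genes nearest in level to the highest TRIM gene, and transcripts holding 10% or more of their gene; the genes named by position in the cluster are outside that rule. Of the regulator list, 1 gene is not reported here; counts and medians over the interferon-stimulated list include every gene on it. Expected counts were rounded and scaled by TMM in edgeR 4.0.16 (R 4.3.3); log2 ratios used a prior count of 0.5 and genes with a mean of 10 counts or more. DESeq2 1.42.0 gave alternative size factors. With 1 library on each side no test was made. The ratio step was checked on simulated counts with known changes and counting error only. That setting lacks the spread seen between these libraries, so it checks the arithmetic and no more. Other steps used Python 3.11.15, numpy 2.4.6 and pandas 2.3.3. Depth was 23.6 M counts in replicate 1 and 15.7 M in replicate 2, and no molecular identifiers are stated, so limits from counts cover counting error only.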

Additional observations from a re-analysis of the deposited data

Results flagged for a closer look

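Rows of the cluster on chromosome 7 that are not protein-coding and that no comparison uses also held more than the 3 counts that are the limit for a count of 0. Gm16464, a processed pseudogene inside the span of Trim30d that overlaps 0 bases of its exons, had 619 expected counts in replicate 1 and 351 in replicate 2 (26.5 and 16.9 TPM). Gm15133, an antisense gene at the 5′ end of Trim12a, had 23 in replicate 1 and 9 in replicate 2. In the tables in kallisto format Gm15133 had 162 and 62.3 counts. The strand setting is not stated, so reads from the 448 bases that the spans of Gm15133 and Trim12a share cannot be assigned to one of them with certainty.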

How the results depend on the processing

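No paired analysis was possible because the series has 1 group. Ratios between the libraries need both, so no library could be left out of them. The summed TPM of the TRIM genes, 654, ran from 551 to 756 with either library left out, was 316 in the tables in kallisto format and was 2810 when TPM was rescaled over nuclear protein-coding genes. The number at 10 TPM or more ran from 9 to 10 with either library left out, and was 8 in kallisto format. The median log2 ratio of the TRIM genes, 0.15, was 0.58 in deposited TPM not centred, where the median nuclear protein-coding gene stood at 0.46 and the median of all genes tested at 0.42, which moves every gene. The number of TRIM genes over 2-fold apart, 1, was 0 in kallisto format, and it was 1 under the other settings, 1.5-fold included. The number of all genes over 2-fold apart, 1199, was 1848 in TPM not centred, 349 with a pseudocount of 1, 2619 in kallisto format, 6354 with no floor on counts and 3344 at 1.5-fold. Of the 10 single ratios, 7 moved by more than the spread of 1 library in TPM not centred and 1 did in kallisto format. All 10 single levels moved by more than their SD under rescaling, 8 did in kallisto format and 0 with the posterior mean. Shares on transcripts not annotated as protein-coding moved beyond their SD for 4 genes in kallisto format and for 3 by expected counts. With 2 libraries, SDs are imprecise.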

Other observations

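The gene order by level was nearly the same from both quantifications, with 8 of the 10 TRIM genes at the same rank. The direction between libraries was not the same on the TPM scale. All 10 had higher TPM in replicate 1 in RSEM format, while 7 of the 10 had higher TPM in replicate 2 in kallisto format. On TMM-scaled counts, 9 of 10 were higher in replicate 1 from either table. The deposited interval lay wholly below the reported TPM for 5 of the 10 genes in replicate 1 and for 4 in replicate 2. The cause was not tested.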
